A study of Mus musculus with 19 samples.

Results

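YAP S127A alone against control epithelium compares whole tongue epithelium of 3 mice that switched on a transgene for active YAP with that of 5 control mice. The mice were chosen by their GEO labels, and they are 8 of the 19 mice of the series. The comparison asks what active YAP does to the epithelium when it acts without a viral oncogene. The study crossed transgenes for YAP S127A and for the E6-E7 oncogenes of a human papillomavirus into mice and sequenced RNA selected for its poly(A) tail on an Illumina NovaSeq6000. Group names follow the labels: Y for YAP S127A alone, N for control, E for E6-E7 alone (5 mice) and EY for both transgenes (6 mice). The E and EY mice enter through tests of Y against E and of EY against Y, and all 4 groups help to estimate the spread in every test.

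Y mice had the genotype Krt14-CreERT/LSL-rtTA/tetON_YAP1S127A. N mice 1 to 3 had Krt14-CreERT/LSL-rtTA and neither the YAP S127A nor the E6-E7 transgene. N mouse 4 had LSL-rtTA alone, so it lacked Cre, and N mouse 5 had Krt14-CreERT/tetON_E6-E7/tetON_YAP1S127A, so it carried both transgenes without the rtTA that switches them on. E mice had Krt14-CreERT/LSL-rtTA/tetON_E6-E7, and EY mice had that genotype with tetON_YAP1S127A added. Per the study's methods the mice were littermates of 8 to 16 weeks. All groups took tamoxifen by injection into the tongue (3 doses, every other day) and doxycycline in their chow. The lines also carried a tetON_H2B-GFP reporter that the labels do not list. Tamoxifen activates Cre in basal cells that express the Krt14 promoter, Cre then lets those cells and their progeny make rtTA, and doxycycline lets rtTA switch on the transgene. The epithelium was taken 15 days after induction and holds induced and uninduced cells, whose shares the labels do not give. In such bulk samples, fewer cells of a type and less RNA per cell cannot be told apart.

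YAP is a coactivator with no DNA-binding domain of its own, which enters the nucleus and acts through TEAD transcription factors. The Hippo kinases LATS1 and LATS2 phosphorylate YAP so that it is held in the cytoplasm, and the S127A change removes the main serine by which 14-3-3 proteins hold it there. In stratified epithelia YAP is most active in basal cells, where it is known for promoting proliferation and delaying differentiation.

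Levels are in TPM, a relative unit of transcripts that is scaled for gene length and library size. The reads assigned to genes, recovered as whole numbers from the TPM values, came to 9651533, 9637779, 8798700, 10654405 and 9446334 in N mice 1 to 5 and to 8269674, 8679053 and 9249340 in Y mice 1 to 3. Values per mouse are given in the order of these mouse numbers, to which the labels attach no other meaning. The label of tongue epithelium was checked against 10 marker genes of keratinocytes and oral mucosa, whose summed level was 156567, 85714, 121549, 131213 and 127180 TPM in the N mice and 135880, 71156 and 102100 TPM in the Y mice. Krt13, a keratin of oral suprabasal cells and the most abundant of the 10, was at 88788, 46629, 68579, 76099.7 and 75464 TPM in the N mice and 52169, 29697 and 44865 TPM in the Y mice. None of the 10 was at 0 in all 8 mice. Yap1 itself was at 7.88, 10.2, 8.46, 7.48 and 7.70 TPM in the N mice and 9.65, 6.62 and 9.45 TPM in the Y mice. The groups overlapped and Yap1 was not called (log2 fold change 0.03, standard error 0.14, adjusted p = 0.921). The table has no separate entry for the transgene, and which of its reads would count toward mouse Yap1 is not stated, so this level checks the label only weakly.

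Expression differed between Y and N epithelium in both directions, with more genes up than down. A gene was tested where at least 3 of the 8 mice had 0.1 TPM or more, which gave 20776 of 24689 genes. It is called a DEG, differentially expressed gene, where limma's adjusted p was below 0.01 and the log2 fold change was above 1 or below -1, and only DEGs are written as having risen or fallen. Of the genes tested, 1069 were DEGs (5.15%), 805 up (3.87%) and 264 down (1.27%). A p that misses the threshold does not show that values did not differ. The 3 Y and 5 N mice did not overlap in TPM for 4737 genes (22.8%), with the Y mice above in 3490 (16.8%) and below in 1247 (6.00%). DEGs without overlap and with a mean of at least 1 TPM in the higher group numbered 955 (4.60%), of which 736 were up (3.54%). With no threshold, 12229 genes (58.9%) had a log2 fold change above 0.

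The split into up and down moved with the scaling. Over all genes tested the median log2 fold change was 0.15 on the TPM scale, -0.03 after median-of-ratios scaling and 0.01 after quantile normalization. DEGs up were 805 of 1069 (75.3%) on the TPM scale, 530 of 936 (56.6%) after median-of-ratios scaling and 560 of 901 (62.2%) after quantile normalization. Most medians of gene lists for Y against N are therefore followed in brackets by the median after median-of-ratios scaling and then after quantile normalization, or after the word scaled, to be read against these all-gene medians. Medians for Y against E and EY against Y are on the TPM scale alone, so their sign and size may rest on the scaling. Counts of list members at an unadjusted p under 0.05 are given without the share over all genes, so they cannot be set against it. The count of DEGs was 674 without Y mouse 3, 679 with N mice 1 to 3 as the only controls and 615 when the E and EY mice were left out of the fit. With each of the 8 mice left out in turn, 534 of the 1069 calls passed every time, 459 of those up and 75 down. Every call of Y against N printed for a gene is followed, where leaving out a mouse undid it, by that mouse and the value without it. The plot of fold change against level marks S100a8, Edn1 and Krt19 among the DEGs up and Dbp and Bhlha9 among those down.

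**Figure D1:**
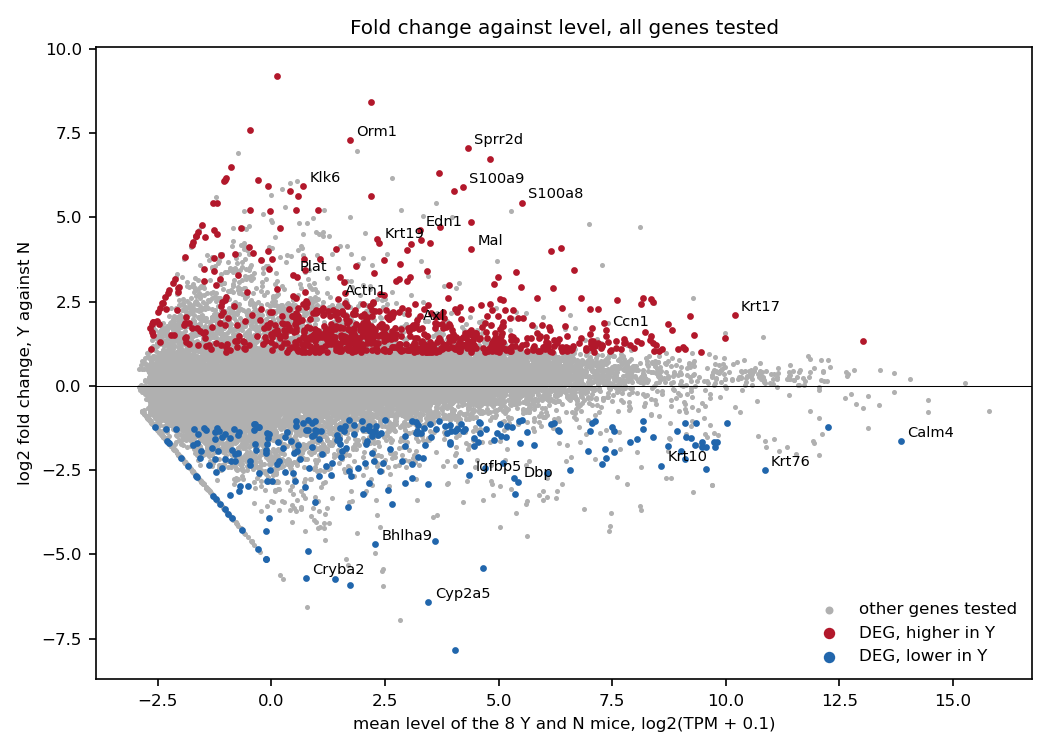
Log2 fold change of Y against N for each of the 20776 genes tested, against the mean log2 level of the 8 mice; red and blue points are the 805 DEGs up and the 264 down. The red points reach farther from 0 than the blue ones over most of the range of levels.

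The tests against the other transgenic groups used the same 20776 genes. Y against E gave 572 DEGs (2.75%), 385 higher in Y (1.85%) and 187 lower (0.900%). EY against Y gave 451 DEGs (2.17%), 230 higher in EY (1.11%) and 221 lower (1.06%). The share of DEGs higher in Y than in E was 67.3%, 56.2% after median-of-ratios scaling and 57.1% after quantile normalization, and the share higher in EY than in Y was 51.0%, 27.2% and 31.1%. Over all genes the median log2 fold change was 0.07 for Y against E and 0.15 for EY against Y. Both counts rest on the 3 Y mice, with 329 DEGs for Y against E without Y mouse 2 and 270 without Y mouse 3, and 194, 250 and 268 for EY against Y without Y mouse 1, 2 and 3. With Xist, a gene of the inactive X chromosome, as a covariate, Y against E gave 334 DEGs. Xist was above Ddx3y, from the Y chromosome, in 2 of 3 Y mice and in 0 of 5 E mice. Counts of lists for Y against E are given without that covariate, so sex and transgene are not separated in them. Both contrasts share the Y mice with the comparison against N.

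Direct YAP targets were the first genes looked at, since they read out TEAD-bound YAP. Of 22 conserved targets 21 were tested, with Rbms3 below the filter, and 3 rose, namely Axl, Amotl2 and Ccn1. The list's median log2 fold change was 0.66 (0.50 and 0.58), and 10 of the 21 had all Y mice above all N mice. Axl, a receptor tyrosine kinase for GAS6, was at 10.1, 7.06, 6.80, 3.04 and 3.56 TPM in the N mice and 24.1, 15.9 and 21.5 TPM in the Y mice. The lowest Y mouse was above the highest N mouse (log2 fold change 1.84, standard error 0.29, adjusted p = 3.1e-04). Amotl2, a scaffold that binds YAP and feeds back on it, was at 13.6, 19.3, 18.6, 14.5 and 13.2 TPM in the N mice and 45.0, 49.1 and 67.0 TPM in the Y mice. Amotl2 rose with the groups apart (log2 fold change 1.75, standard error 0.19, adjusted p = 1.0e-05). Ccn1, a secreted matricellular protein, was at 80.8, 98.5, 114, 128 and 117 TPM in the N mice and 329, 325 and 354 TPM in the Y mice. Ccn1 rose too, again without overlap (log2 fold change 1.66, standard error 0.33, adjusted p = 0.00228). Ccn1 missed the threshold without Y mouse 3 (adjusted p = 0.0145).

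Other targets were higher in every Y mouse than in any N mouse without passing the test, namely Lats2 (1.04), F3 (1.09), Igfbp3 (0.47), Crim1 (0.66), Fjx1 (0.89), Dock5 (0.74) and Arhgef17 (0.89), with the log2 fold change in brackets. Ccn2, a matricellular relative of Ccn1, was at 4.92, 7.23, 17.4, 1.21 and 2.05 TPM in the N mice and 4.23, 8.62 and 12.3 TPM in the Y mice. Ankrd1, a muscle ankyrin-repeat protein often used as a YAP readout, was at 0.140, 0, 0.157, 0 and 0 TPM in the N mice and 0.177, 0.312 and 0 TPM in the Y mice. The groups overlapped for both (log2 fold changes 0.79 and 0.65). Of the targets not called, F3 had the highest log2 fold change (1.09) and Foxf2 the lowest (-1.01). Against E, 5 targets were higher in Y, the same 3 with Fjx1 (1.11), a secreted kinase-like protein, and Dock5 (1.01), an exchange factor for RAC, where the median was 0.90. Between EY and Y the count was 0 (limma, 4 at an unadjusted p under 0.05 and 0 by voom), with a median of 0.31.

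The TEAD motif GGAATG was searched on both strands in promoters of 300 bases, from 250 before to 50 after each start site, taken from RefSeq (GRCm38.p6), to show which target promoters hold those letters. It was in 4817 of all 32851 promoters (14.66%), in 16.58% of genes with a promoter and in those of 7 of the 15 targets that had an entry, namely Amotl2, Lats2, Ccn1, Ankrd1, Axl, Crim1 and Ptpn14. The promoters of the 3 targets that rose are printed with the motif, read on either strand, in capitals, for Ccn1 chr3:145649936-145650235 on the minus strand, for Amotl2 chr9:102717554-102717853 on the plus strand and for Axl chr7:25788684-25788983 on the minus strand. A match describes the letters of the window and is not a binding site or a cause.
Ccn1: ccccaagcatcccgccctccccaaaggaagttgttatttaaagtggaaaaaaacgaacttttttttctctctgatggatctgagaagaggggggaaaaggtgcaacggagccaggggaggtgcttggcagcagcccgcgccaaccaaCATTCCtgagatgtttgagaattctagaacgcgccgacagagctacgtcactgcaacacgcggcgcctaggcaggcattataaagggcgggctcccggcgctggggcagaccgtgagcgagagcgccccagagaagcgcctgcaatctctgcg
Amotl2: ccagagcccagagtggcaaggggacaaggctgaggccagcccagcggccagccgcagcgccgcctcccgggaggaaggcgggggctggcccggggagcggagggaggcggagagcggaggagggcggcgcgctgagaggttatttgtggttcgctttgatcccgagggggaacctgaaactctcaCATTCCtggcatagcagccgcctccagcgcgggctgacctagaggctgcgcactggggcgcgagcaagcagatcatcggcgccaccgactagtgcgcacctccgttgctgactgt
Axl: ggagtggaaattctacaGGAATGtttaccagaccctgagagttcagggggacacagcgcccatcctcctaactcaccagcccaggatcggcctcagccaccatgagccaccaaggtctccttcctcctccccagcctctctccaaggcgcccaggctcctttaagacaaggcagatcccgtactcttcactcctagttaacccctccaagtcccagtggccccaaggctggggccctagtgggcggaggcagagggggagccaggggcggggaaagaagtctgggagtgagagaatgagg

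The Hippo pathway, the kinases, scaffolds and TEAD partners around YAP, gave 4 DEGs up of 29 tested of 32, with Vgll1 not in the table and Fat4 and Dchs1 below the filter. Besides Amotl2 these were Wwc2, a KIBRA-type scaffold that activates LATS kinases, Vgll3, a TEAD cofactor, and Ajuba, a LIM protein that inhibits them. Wwc2 was at 0.515, 0.505, 0.406, 0.280 and 0.375 TPM in the N mice and 1.58, 1.82 and 2.24 TPM in the Y mice, with every Y mouse higher (log2 fold change 1.95, standard error 0.22, adjusted p = 2.1e-05). Vgll3 was at 1.22, 1.98, 1.36, 1.37 and 1.65 TPM in the N mice and 3.85, 4.13 and 5.30 TPM in the Y mice (log2 fold change 1.49, standard error 0.27, adjusted p = 9.2e-04), and its groups did not overlap. Ajuba was at 34.4, 45.2, 47.6, 31.6 and 31.1 TPM in the N mice and 73.1, 71.5 and 86.0 TPM in the Y mice (log2 fold change 1.03, standard error 0.19, adjusted p = 0.00123), and its groups did not overlap. Ajuba missed the threshold without Y mouse 3 (adjusted p = 0.0118) or without N mouse 4 or 5 (log2 fold change 0.97). The median of the 29 was 0.22 (0.03 and 0.05), close to that of all genes. The members not called included the TEAD factors, with log2 fold changes of 0.91 for Tead1, 0.24 for Tead2, -0.11 for Tead3 and 0.81 for Tead4, and the kinases Lats1 (-0.02) and Lats2 (1.04). Against E, 3 members were higher in Y, and the count for EY against Y was 0 (limma, 9 at an unadjusted p under 0.05 and 0 by voom).

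The 15 largest increases among DEGs without overlap between the mice included cornified envelope genes, a lipoxygenase, a protease and secreted inflammatory proteins, together with 5 genes whose symbols start with Gm. Orm1, a plasma protein of the acute phase, was at 2.69, 0.163, 0.355, 0.819 and 0 TPM in the N mice and 46.8, 121 and 84.3 TPM in the Y mice. No N mouse reached the lowest Y mouse (log2 fold change 7.30, standard error 0.84, adjusted p = 2.3e-05). Sprr2d, a small proline-rich precursor of the cornified envelope, was at 41.4, 2.03, 3.32, 1.42 and 0.640 TPM in the N mice and 573, 391 and 352 TPM in the Y mice. N mouse 1 was the highest of the controls and below all Y mice (log2 fold change 7.06, standard error 1.16, adjusted p = 4.6e-04). Sprr2e (log2 fold change 8.42, adjusted p = 0.00113) and Sprr2f (log2 fold change 6.74, adjusted p = 0.00107) are close copies of it, so reads could be shared among these genes. Alox12e, an epidermal lipoxygenase, was at 0.0812, 0.417, 0.273, 0 and 0 TPM in the N mice and 5.86, 19.5 and 16.5 TPM in the Y mice. It rose without overlap (log2 fold change 5.93, standard error 0.79, adjusted p = 8.3e-05). Klk6, a kallikrein serine protease, was at 0.303, 0.311, 0, 0.849 and 0.221 TPM in the N mice and 30.7, 20.8 and 14.3 TPM in the Y mice. Every Y mouse was far above the N mice (log2 fold change 5.92, standard error 0.51, adjusted p = 1.4e-06). S100a9, the calcium-binding partner of S100a8 in calprotectin, was at 21.0, 5.31, 2.07, 1.43 and 2.69 TPM in the N mice and 283, 306 and 157 TPM in the Y mice. S100a9 rose, with N mouse 1 the highest control (log2 fold change 5.89, standard error 1.03, adjusted p = 7.7e-04). Il24, a cytokine of the IL-20 group, was listed at 0 in all 5 N mice and at 2.81, 11.5 and 21.5 TPM in the Y mice (adjusted p = 4.1e-04). Each of these 8 passed with any of the 8 mice left out.

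Of the 30 named genes, 6 were listed at 0 in all N mice and 4 in all Y mice, and a fold change fitted for those depends on the pseudocount, so none is printed. Printed fold changes of genes near 0 TPM in a group move with it too. With pseudocounts of 1 and 0.01 TPM they were 3.56 and 7.58 for Alox12e, -3.07 and -8.05 for Cryba2 and -1.92 and -6.62 for Rec8. Gm49330 was listed at 0 in all 5 N mice and at 69.2, 25.4 and 115 TPM in the Y mice, from 12, 5 and 22 reads. Gm47125 rested on 2, 9 and 5 reads, Gm49733 on 3, 2 and 4 and H3c10 on 2, 9 and 4 in the Y mice. All 4 were listed at 0 in the N mice. Their adjusted p were 5.3e-04, 0.00559, 0.00138 and 0.00879. Gm5503, a pseudogene in RefSeq, was listed at 0 in all 5 N mice and at 10.4, 29.6 and 22.3 TPM in the Y mice (adjusted p = 0.00849). Gm7897 was at 42.0, 0.477, 0.782, 45.9 and 0 TPM in the N mice and 191, 216 and 188 TPM in the Y mice (log2 fold change 6.30, adjusted p = 0.00696). H2ac11, a replication-dependent histone H2A, was at 0, 0, 0, 0 and 1.15 TPM in the N mice and 4.47, 18.4 and 17.5 TPM in the Y mice (log2 fold change 6.11, adjusted p = 0.00874). H2ac11 and H3c10 have near-identical copies in the genome and their mRNAs mostly lack the poly(A) tail used here for selection, so their levels are uncertain. Gm47125 missed the threshold with any of the 8 mice left out (adjusted p 0.0103 to 0.0289) and Gm49733 without Y mouse 3 (adjusted p = 0.0105). H3c10 missed the threshold with any of the 8 mice left out (adjusted p 0.0154 to 0.0421) and Gm5503 with any of the 8 mice left out (adjusted p 0.0148 to 0.0380). Gm7897 missed the threshold without Y mouse 1, 2 or 3 or N mouse 2, 3 or 5 (adjusted p 0.0115 to 0.0295) and H2ac11 without Y mouse 1, 2 or 3 or N mouse 1, 2, 3 or 4 (adjusted p 0.0155 to 0.0457).

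The 15 largest decreases were led by Gm14180, Cyp2a5 and Gm52952, and 9 of the 15 carry Gm symbols. Cyp2a5, a cytochrome P450 that oxidizes coumarin and nicotine, was at 37.5, 36.0, 162, 53.7 and 56.6 TPM in the N mice and 0.262, 1.08 and 0.634 TPM in the Y mice. All Y mice were below all N mice (log2 fold change -6.42, standard error 0.66, adjusted p = 6.7e-06). Krtap21-1, a keratin-associated protein of hair-type cornification, was at 4.38, 41.5, 8.86, 24.2 and 5.12 TPM in the N mice and 0, 0.977 and 0 TPM in the Y mice (log2 fold change -5.72, standard error 1.30, adjusted p = 0.00529). Cryba2, a beta-crystallin best known from the lens, was at 23.1, 2.01, 1.79, 12.7 and 19.2 TPM in the N mice and 0, 0.198 and 0 TPM in the Y mice (log2 fold change -5.69, standard error 0.90, adjusted p = 3.4e-04). Bhlha9, a transcription factor of limb development, was at 11.8, 23.3, 15.9, 19.6 and 13.8 TPM in the N mice and 0, 2.11 and 1.08 TPM in the Y mice (log2 fold change -4.69, standard error 0.64, adjusted p = 1.0e-04). The mice did not overlap for any of these genes. Rec8, a meiotic cohesin subunit, was at 0.929, 14.9, 2.00, 1.27 and 3.99 TPM in the N mice and 0.196, 0 and 0 TPM in the Y mice (log2 fold change -4.30, adjusted p = 0.00354). Mir8116, a microRNA gene counted here by its transcript, was at 41.5, 42.7, 73.3, 15.4 and 52.0 TPM in the N mice and 0, 6.62 and 6.80 TPM in the Y mice (log2 fold change -4.59, adjusted p = 0.00377). Mir8116 rested on 0, 1 and 1 reads in the Y mice. Its log2 fold change was -2.56 without Y mouse 1 and -2.65 by voom. Krtap21-1 missed the threshold without Y mouse 1 or 3 or N mouse 2 or 4 (adjusted p 0.0125 to 0.0375) and Rec8 without Y mouse 2 or 3 (adjusted p 0.0194 to 0.0244).

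Gm14180 was at 104, 472, 58.2, 262 and 43.2 TPM in the N mice and 0, 16.5 and 0 TPM in the Y mice (log2 fold change -7.85, adjusted p = 2.8e-04), from 0, 2 and 0 reads in the Y mice. The fold change of Gm14180 was -5.62 and -10.06 with pseudocounts of 1 and 0.01 TPM and -4.28 by voom. Gm11555, which RefSeq lists as protein coding, was at 101, 262, 28.1, 185 and 82.7 TPM in the N mice and 0, 17.0 and 8.20 TPM in the Y mice (log2 fold change -5.41, adjusted p = 0.00564). Without Y mouse 1 the log2 fold change of Gm11555 was -3.11. Gm52952, Gm11581 and Gm8080 fell as well (log2 fold changes -5.90, -4.90 and -3.93). Listed at 0 in all 3 Y mice were Gm15382, Gm52977, Gm5278 and Gm49201, at 0.5001 to 8.50 TPM from 1 to 9 reads in an N mouse, with adjusted p of 0.00320, 0.00467, 0.00266 and 0.00493. Of the 30 named genes, 14 lost their call with N mice 1 to 3 only, 10 with Y and N mice only, 9 with mice paired by number, 8 by voom and 4 after each scaling. Past the threshold in every alternative were Gm49330, Orm1, Sprr2d, Il24, Alox12e, Klk6, S100a9, Cyp2a5, Gm52952 and Gm8080. Gm11581, Gm15382, Gm5278 and Gm8080 are pseudogenes in RefSeq, and reads of a pseudogene could come from its parent gene. Gm11555 missed the threshold without Y mouse 1 or N mouse 1, 2, 4 or 5 (adjusted p 0.0106 to 0.0236) and Gm11581 without Y mouse 1 or 2 or N mouse 3 or 5 (adjusted p 0.0120 to 0.0298). Gm15382 missed the threshold without Y mouse 1, 2 or 3 (adjusted p 0.0128 to 0.0168) and Gm52977 without Y mouse 1, 2 or 3 or N mouse 2 or 4 (adjusted p 0.0109 to 0.0226). Gm5278 missed the threshold without Y mouse 1, 2 or 3 (adjusted p 0.0111 to 0.0145) and Gm49201 without Y mouse 1, 2 or 3 or N mouse 1 or 4 (adjusted p 0.0119 to 0.0235).

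Genes of mitosis rose together in Y epithelium, while those of DNA replication rose in part. All 30 tested members of the mitosis and cytokinesis list were DEGs up, also after both scalings, with Bub1 not in the table. Their median log2 fold change was 2.03 (1.83 and 1.83), and single values ran from 1.47 for Ndc80 to 2.46 for Ect2. Plk1, the polo kinase that drives entry into mitosis, was at 3.28, 3.82, 2.45, 1.98 and 2.07 TPM in the N mice and 16.9, 9.13 and 13.2 TPM in the Y mice (log2 fold change 2.22, standard error 0.25, adjusted p = 1.5e-05). Cdc20, the activator of the anaphase-promoting complex, was at 22.4, 24.5, 15.2, 18.6 and 18.4 TPM in the N mice and 107, 76.8 and 99.5 TPM in the Y mice (log2 fold change 2.25, standard error 0.17, adjusted p = 3.4e-07). Ccnb2, a mitotic cyclin, was at 3.70, 4.19, 3.42, 3.23 and 2.92 TPM in the N mice and 13.4, 14.1 and 14.5 TPM in the Y mice (log2 fold change 1.98, standard error 0.20, adjusted p = 6.1e-06). Mki67, a coat protein of mitotic chromosomes used to mark cycling cells, was at 22.0, 30.0, 19.4, 18.1 and 18.9 TPM in the N mice and 66.5, 70.2 and 85.7 TPM in the Y mice (log2 fold change 1.79, standard error 0.17, adjusted p = 4.8e-06). Each of these had every Y mouse above every N mouse, as had all 30 members, against 16.8% of all genes tested. Each member also passed with any of the 8 mice left out. Foxm1 and Mybl2, regulators of mitotic transcription chosen after their values were seen, rose too, with log2 fold changes of 1.78 and 1.98.

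Promoters of mitotic genes often pair a CCAAT box, bound by NF-Y, with the cell cycle homology region, CHR, bound by the MuvB complex, and the mitosis genes are shown by promoter because they rose together. CCAAT was searched on both strands and was in 12289 of the 32851 promoters (37.41%), TTTGAA, for the CHR, in 5878 (17.89%) and both in 2284 (6.953%). By gene the shares were 41.06, 20.23 and 7.974%, and over tested genes 41.98, 15.22 and 6.271%. Of the 27 listed mitosis genes with an entry, among them Bub1, 21 held CCAAT, 21 held TTTGAA and 18 held both. CCAAT was in 17 and both were in 4 of 28 genes of DNA replication, and CCAAT was in all 14 cholesterol synthesis genes with an entry. The promoters of Plk1 (chr7:122159185-122159484 on the plus strand) and Cdc20 (chr4:118437294-118437593 on the minus strand) are printed with both motifs, on either strand, in capitals, and again describe letters only.
Plk1: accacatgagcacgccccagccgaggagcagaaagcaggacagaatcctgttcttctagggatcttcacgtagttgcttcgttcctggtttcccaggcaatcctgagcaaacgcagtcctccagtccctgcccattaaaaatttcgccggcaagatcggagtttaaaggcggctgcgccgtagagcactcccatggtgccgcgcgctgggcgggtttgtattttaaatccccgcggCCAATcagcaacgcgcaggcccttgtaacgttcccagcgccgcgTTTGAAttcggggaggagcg
Cdc20: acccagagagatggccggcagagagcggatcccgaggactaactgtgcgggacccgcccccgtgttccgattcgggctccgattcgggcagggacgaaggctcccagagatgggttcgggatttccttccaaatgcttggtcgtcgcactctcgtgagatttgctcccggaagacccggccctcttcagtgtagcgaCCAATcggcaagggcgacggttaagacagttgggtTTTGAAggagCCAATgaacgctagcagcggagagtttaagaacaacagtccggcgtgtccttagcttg

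Of 36 genes of DNA replication and G1/S, 8 rose (Mcm5, Mcm10, Rrm1, Rrm2, Tyms, Fen1, Rpa2 and Ccne1), and 4 did after each scaling, with 5 without Y mouse 3. The median was 0.80 (0.61 and 0.59). Mcm5, a subunit of the replicative helicase, was at 10.1, 9.94, 11.8, 10.5 and 8.14 TPM in the N mice and 23.7, 18.8 and 22.2 TPM in the Y mice. Y and N mice did not overlap in Mcm5 (log2 fold change 1.09, standard error 0.20, adjusted p = 0.00126). Rrm2, the regulated subunit of ribonucleotide reductase, was at 25.1, 16.8, 19.5, 25.5 and 18.6 TPM in the N mice and 73.4, 49.2 and 84.7 TPM in the Y mice. The order of the groups was the same (log2 fold change 1.69, standard error 0.34, adjusted p = 0.00238). Ccne1, the cyclin that starts S phase with CDK2, was at 4.12, 2.27, 4.62, 2.94 and 2.38 TPM in the N mice and 11.7, 6.32 and 9.23 TPM in the Y mice (log2 fold change 1.46, standard error 0.26, adjusted p = 8.3e-04). Mcm10 missed the threshold without Y mouse 1 or 3 (adjusted p 0.0121 to 0.0195) and Rrm2 without Y mouse 1 or 3 (adjusted p 0.0124 to 0.0205). Tyms missed the threshold without Y mouse 2 or N mouse 4 (log2 fold change 0.97 to 1.00) and Rpa2 without Y mouse 3 or N mouse 1 (log2 fold change 0.97 to 0.98).

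Against E, the mitosis genes gave 0 DEGs (limma, 8 at an unadjusted p under 0.05 and 0 by voom; median 0.25). The replication genes had a median of -0.36 and 1 DEG, Prim1, a primase subunit lower in Y (log2 fold change -1.06, adjusted p = 0.00713). EY epithelium was higher than Y in 13 of 30 mitosis genes (median 1.01) and in 19 of 36 replication genes (median 1.10). Mcm5 was at 20.6, 34.1, 41.0, 33.1 and 30.0 TPM in the E mice and 34.8 to 62.2 TPM in the EY mice (median 47.7). Its log2 fold change was -0.53 for Y against E (adjusted p = 0.108) and 1.16 for EY against Y (adjusted p = 0.00153). Plk1 was at 8.35, 7.14, 10.2, 7.75 and 7.27 TPM in the E mice and 15.7 to 33.5 TPM in the EY mice (median 23.7). The log2 fold changes of Plk1 were 0.64 (adjusted p = 0.109) and 0.88 (adjusted p = 0.0277). Y mice thus overlapped E mice in both genes.

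G1 regulators gave 2 DEGs of 11 tested, Cdk6 and Ccnd3, with Cdkn2a below the filter and a median of 0.35 (0.15 and 0.06). The count was 1 after each scaling and 1 without Y mouse 1 or 3 or N mouse 4 or 5. Cdk6, a kinase that pairs with D cyclins, was at 1.19, 1.32, 1.22, 1.06 and 0.694 TPM in the N mice and 2.42, 3.16 and 3.70 TPM in the Y mice (log2 fold change 1.43, standard error 0.22, adjusted p = 2.8e-04). Ccnd3, a D cyclin, had log2 fold change 1.00, adjusted p = 0.00432. Ccnd3 missed the threshold without Y mouse 1 or 3 or N mouse 4 or 5 (adjusted p 0.0103 to 0.0328). Ccnd1 was not called against N (log2 fold change 0.63) and was higher in Y than in E (log2 fold change 1.46, adjusted p = 0.00103). Cdkn1c, an inhibitor of CDKs, was lower in Y than in E (log2 fold change -2.76, adjusted p = 3.0e-04) and higher in EY than in Y (log2 fold change 2.19, adjusted p = 0.00182). Targets of p53, the damage-responsive factor that E6 destroys but YAP does not, gave 6 DEGs up of 16, namely Ccng1, Bax, Pmaip1, Eda2r, Phlda3 and Plk2, with a median of 0.53 (0.34 and 0.31). The count was 4 up and 1 down after median-of-ratios scaling and 4 up and 0 down after quantile normalization. Pmaip1, the BH3 protein NOXA, was at 6.00, 3.58, 3.37, 2.87 and 3.00 TPM in the N mice and 64.9, 78.0 and 66.5 TPM in the Y mice. It was higher in all Y mice (log2 fold change 4.23, standard error 0.26, adjusted p = 1.6e-07). Plk2, a polo-like kinase, was at 61.0, 42.3, 49.7, 56.7 and 84.7 TPM in the N mice and 418, 294 and 348 TPM in the Y mice (log2 fold change 2.61, standard error 0.27, adjusted p = 7.7e-06). Cdkn1a, the CDK inhibitor p21, was at 186, 173, 144, 200.1 and 185 TPM in the N mice and 249.8, 157 and 203 TPM in the Y mice. Cdkn1a was not called (log2 fold change 0.18, adjusted p = 0.456). Bax missed the threshold without Y mouse 1 or N mouse 4 (log2 fold change 0.91 to 0.96) and Phlda3 without Y mouse 1 or 3 (adjusted p 0.0128 to 0.0170).

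A list of meiosis and germline genes chosen for their response to E6-E7 gave 2 DEGs up of 8 tested of 13, with Hormad1 and Mael not in the table and Smc1b, Meiob and Tex15 below the filter. These were Ccnb1ip1, a ligase of meiotic crossovers (log2 fold change 5.42, adjusted p = 0.00298), and Syce2, of the synaptonemal complex (log2 fold change 1.16, adjusted p = 0.00777), and by voom the count was 0. Ccnb1ip1 was at 0, 0, 0.0346, 0 and 0 TPM in the N mice and 4.95, 3.09 and 5.69 TPM in the Y mice. The list's median was -0.33 (-0.43 and -0.21). The count was 1 after each scaling, 0 without Y mouse 1 or 3 and 1 without Y mouse 2 or N mouse 1, 3, 4 or 5. Ccnb1ip1 missed the threshold without Y mouse 1 or 3 (adjusted p 0.0132 to 0.0189) and Syce2 without Y mouse 1, 2 or 3 or N mouse 1, 3, 4 or 5 (adjusted p 0.0107 to 0.0417).

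Keratins and other genes of differentiation moved in both directions, with Krt17, Krt19 and Sprr2 genes up and Lce1 genes and some suprabasal keratins down. Of 9 keratins of stressed or simple epithelium, 2 rose and the median was 1.22 (1.03 and 1.03). Krt19, a small keratin of simple epithelia, was at 1.38, 3.06, 1.79, 1.06 and 1.27 TPM in the N mice and 36.5, 22.3 and 40.8 TPM in the Y mice. The groups stood far apart (log2 fold change 4.25, standard error 0.50, adjusted p = 2.7e-05). Krt17, a keratin of wounded epidermis, was at 821, 725, 603, 580.3 and 687 TPM in the N mice and 3378, 2460.4 and 2953 TPM in the Y mice. Krt17 rose, also without overlap (log2 fold change 2.10, standard error 0.24, adjusted p = 2.3e-05). Krt6a, Krt6b and Krt16, which mark wounds, were not called (log2 fold changes 0.46, 0.40 and 0.29).

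Suprabasal oral keratins gave 2 DEGs down of 7 (median -0.76, scaled -0.96 and -0.58; 0 without Y mouse 1 and 1 without Y mouse 2). Krt76, a keratin of oral suprabasal cells, was at 2582, 5338, 3755, 3998 and 2739.9 TPM in the N mice and 292, 748 and 1125 TPM in the Y mice (log2 fold change -2.50, standard error 0.54, adjusted p = 0.00376). Krt24 fell too (log2 fold change -1.51, adjusted p = 0.00225). Krt76 missed the threshold without Y mouse 1 or 2 (adjusted p 0.0114 to 0.0308) and Krt24 without Y mouse 1 (adjusted p = 0.0132). Krt4 and Krt13, the main suprabasal pair of oral mucosa, were not called (log2 fold changes -0.76 and -0.76). Krt10, the suprabasal keratin of skin, chosen after its values were seen, was at 536, 1200.3, 444, 814 and 761 TPM in the N mice and 149, 149 and 116 TPM in the Y mice. Krt10 fell without overlap (log2 fold change -2.36, standard error 0.44, adjusted p = 0.00134). Krt10 missed the threshold without Y mouse 3 (adjusted p = 0.0111). Of 13 basal keratins and progenitor factors 1 rose and 1 fell (0 up after median-of-ratios scaling; 0 without Y mouse 3 and 1 without Y mouse 1 or 2 or N mouse 2, 3, 4 or 5). The basal median was near 0 and changed sign with the scaling, at 0.02 (-0.18 and -0.25). Krt14, the basal keratin whose promoter drives Cre, was at 8724, 6536, 4658, 5279 and 5043 TPM in the N mice and 22978, 10895 and 12943 TPM in the Y mice (log2 fold change 1.33, standard error 0.33, adjusted p = 0.00869). Igfbp5, a binding protein of IGFs, was at 59.6, 53.1, 30.6, 41.2 and 26.6 TPM in the N mice and 8.17, 9.85 and 3.20 TPM in the Y mice (log2 fold change -2.64, standard error 0.50, adjusted p = 0.00140). The mice of Y and N did not overlap in either. Krt14 missed the threshold without Y mouse 1, 2 or 3 or N mouse 2, 3, 4 or 5 (adjusted p 0.0101 to 0.0598) and Igfbp5 without Y mouse 3 (adjusted p = 0.0160).

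Small proline-rich genes, which encode cross-linked precursors of the cornified envelope, gave 8 DEGs up of 15 tested, all of them Sprr2 genes (Sprr2a3, Sprr2d, Sprr2e, Sprr2f, Sprr2g, Sprr2h, Sprr2i and Sprr2j-ps), with Sprr2a2 below the filter. The median was 2.94 (2.89 and 2.95). Sprr2 genes are near-identical copies, so how many of them rose is uncertain where reads could be shared. Sprr2h was at 45.2, 62.9, 23.4, 36.0 and 19.6 TPM in the N mice and 487, 183 and 196 TPM in the Y mice (log2 fold change 2.92, standard error 0.49, adjusted p = 5.6e-04). Sprr1a, Sprr1b and Sprr3 were not called (log2 fold changes 1.56, 0.75 and 0.88). Summed over the 16 genes in the table, the level was 5290.2, 2565, 9443, 2821 and 4594 TPM in the N mice and 16092, 7990.1 and 9934 TPM in the Y mice, and N mouse 3 lay between the Y mice. Sprr2a3 missed the threshold with any of the 8 mice left out (adjusted p 0.0113 to 0.0441) and Sprr2i without Y mouse 1 (adjusted p = 0.0169). Against E, 4 members were higher in Y, and the count for EY against Y was 0 (limma, 1 at an unadjusted p under 0.05 and 0 by voom).

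Late cornified envelope genes went the other way, with 9 DEGs down of 21, all of them Lce1 genes (Lce1b, Lce1c, Lce1d, Lce1e, Lce1f, Lce1g, Lce1h, Lce1i and Lce1j), and a median of -1.52 (-1.72 and -1.62). Lce1g was at 914, 638, 726, 1029 and 1303 TPM in the N mice and 264, 339 and 324 TPM in the Y mice, with each Y mouse below each N mouse (log2 fold change -1.54, standard error 0.33, adjusted p = 0.00365). Lce3 genes, the members linked to injury, had log2 fold changes of -0.27 for Lce3c to 0.98 for Lce3d, and no Lce3 gene passed the test. Reads could be shared among Lce1 copies as among Sprr2 copies. The summed level of the 21 was 29723, 16388, 19987, 29954 and 36811 TPM in the N mice and 18913, 19759.5 and 12507 TPM in the Y mice, which overlap. Lce1e missed the threshold without Y mouse 1 or 3 (adjusted p 0.0178 to 0.0264) and Lce1g without Y mouse 1, 2 or 3 (adjusted p 0.0115 to 0.0203). Lce1j missed the threshold without Y mouse 1, 2 or 3 or N mouse 1, 4 or 5 (adjusted p 0.0106 to 0.0483). Y was below E in 11 of the 21 (median -1.71) and EY was below Y in 16 (median -4.04).

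Genes of hair-type cornification, which builds the filiform papillae of the tongue, gave few calls. Of 29 keratin-associated proteins 1, Krtap21-1, fell in limma and 9 by voom, and 20 had an unadjusted p under 0.05. Every Y mouse was below every N mouse in 18 of the 29, against 6.00% of all genes tested. The limma count was 2 after quantile normalization and, with a mouse left out, 0 without Y mouse 1 or 3 or N mouse 2 or 4, 2 without N mouse 1 or 3 and 3 without Y mouse 2. Their median was -2.95 (-3.15 and -3.09), or -3.13 over the 24 with some mouse above 0 in both groups. The summed level was 30200.1, 34838, 12051, 42859 and 25977 TPM in the N mice and 3438, 9264 and 8833 TPM in the Y mice. Of 11 hair-type keratins, with Krt85 not in the table, Krt35 fell (log2 fold change -2.13, adjusted p = 0.00668) and the median was -1.75 (-1.95 and -1.99). Krtap21-1 missed the threshold without Y mouse 1 or 3 or N mouse 2 or 4 (adjusted p 0.0125 to 0.0375) and Krt35 without Y mouse 1 or 3 or N mouse 1, 2, 4 or 5 (adjusted p 0.0130 to 0.0516). EY was below Y in 11 of the keratin-associated proteins and 6 of the hair-type keratins. Krtap genes also have near-identical copies.

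Among 17 other envelope proteins and crosslinkers, with Flg2 below the filter, 1 rose and 3 fell, and the median was -0.60 (-0.80 and -0.82). With a mouse left out the count was 1 without Y mouse 2 or 3 and 2 without N mouse 2, 3 or 4. Casp14, a protease of cornifying cells, was at 11.9, 10.5, 12.6, 17.4 and 13.6 TPM in the N mice and 100.2, 55.9 and 59.2 TPM in the Y mice (log2 fold change 2.40, standard error 0.23, adjusted p = 4.6e-06). Its Y mice were all above its N mice. The DEGs down were the fused S100 proteins Flg, filaggrin (log2 fold change -2.15, adjusted p = 0.00377), Hrnr, hornerin (log2 fold change -2.32, adjusted p = 0.00685), and Tchh, trichohyalin (log2 fold change -1.67, adjusted p = 0.00769). Flg missed the threshold without Y mouse 2 or 3 (adjusted p 0.0154 to 0.0357) and Hrnr without Y mouse 1, 2 or 3 or N mouse 2, 3, 4 or 5 (adjusted p 0.0114 to 0.0346). Tchh missed the threshold without Y mouse 1, 2 or 3 or N mouse 1, 2, 3 or 4 (adjusted p 0.0141 to 0.0531). Ivl, Lor and Tgm1 were not called (log2 fold changes -0.99, -0.94 and 0.35). Crnn, cornulin, and Calm4, a calmodulin-like protein of the cornified layer, were chosen after their values were seen and fell (log2 fold change -2.18, adjusted p = 0.00572 for Crnn and log2 fold change -1.63, adjusted p = 0.00878 for Calm4). Crnn missed the threshold without Y mouse 1 or 2 or N mouse 2, 3 or 4 (adjusted p 0.0113 to 0.0463) and Calm4 without Y mouse 1, 2 or 3 or N mouse 1, 3, 4 or 5 (adjusted p 0.0108 to 0.0495).

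Transcription factors of squamous differentiation gave 1 DEG up and 1 down of 12, with Gata3 below the filter (listed Znf750 is Zfp750, which was tested). The median was -0.35 (-0.55 and -0.62) and the count 0 up and 2 down after each scaling, 0 without Y mouse 1, 2 or 3 and 1 without N mouse 1, 2, 4 or 5. Hopx, an atypical homeodomain protein, rose (log2 fold change 1.19, adjusted p = 0.00392). Maf, a bZIP factor of late differentiation, fell (log2 fold change -1.39, adjusted p = 0.00802). Hopx missed the threshold without Y mouse 1, 2 or 3 or N mouse 4 (adjusted p 0.0112 to 0.0203) and Maf without Y mouse 1, 2 or 3 or N mouse 1, 2, 3 or 5 (adjusted p 0.0116 to 0.0392). Desmosome genes split, with 2 up and 2 down of 12 and Dsg1c below the filter (1 up after quantile normalization; 2 without Y mouse 2). Dsg3, the desmoglein of lower layers, rose (log2 fold change 1.25, adjusted p = 7.3e-04), as did Pkp2, a plakophilin of simple epithelia (log2 fold change 2.09, adjusted p = 0.00199). Dsg1a (log2 fold change -1.68, adjusted p = 1.1e-04) and Dsc1 (log2 fold change -1.56, adjusted p = 0.00147), of upper layers, fell. Dsg3 was at 111, 92.0, 102, 91.5 and 81.0 TPM in the N mice and 261, 185 and 241 TPM in the Y mice, and the groups were apart. Pkp2 missed the threshold without Y mouse 2 or 3 (adjusted p 0.0160 to 0.0217) and Dsc1 without Y mouse 2 (adjusted p = 0.0128). The desmosome median was 0.17 (-0.02 and -0.07) and changed sign with the scaling. Of 14 gap and tight junction genes, Cldn4, a claudin, rose (log2 fold change 1.08, adjusted p = 0.00618). The junction median was 0.28 (0.08 and 0.05), and the count was 0 up and 1 down after median-of-ratios scaling and 0 without Y mouse 1 or N mouse 1 and 2 without N mouse 2. Cldn4 missed the threshold without Y mouse 1 or 3 or N mouse 1, 2, 3 or 4 (adjusted p 0.0123 to 0.0411). Hemidesmosome and basement membrane genes gave 0 DEGs of 13 (limma, 5 at an unadjusted p under 0.05 and 0 by voom; median 0.26, scaled 0.07 and 0.14).

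**Figure D2:**
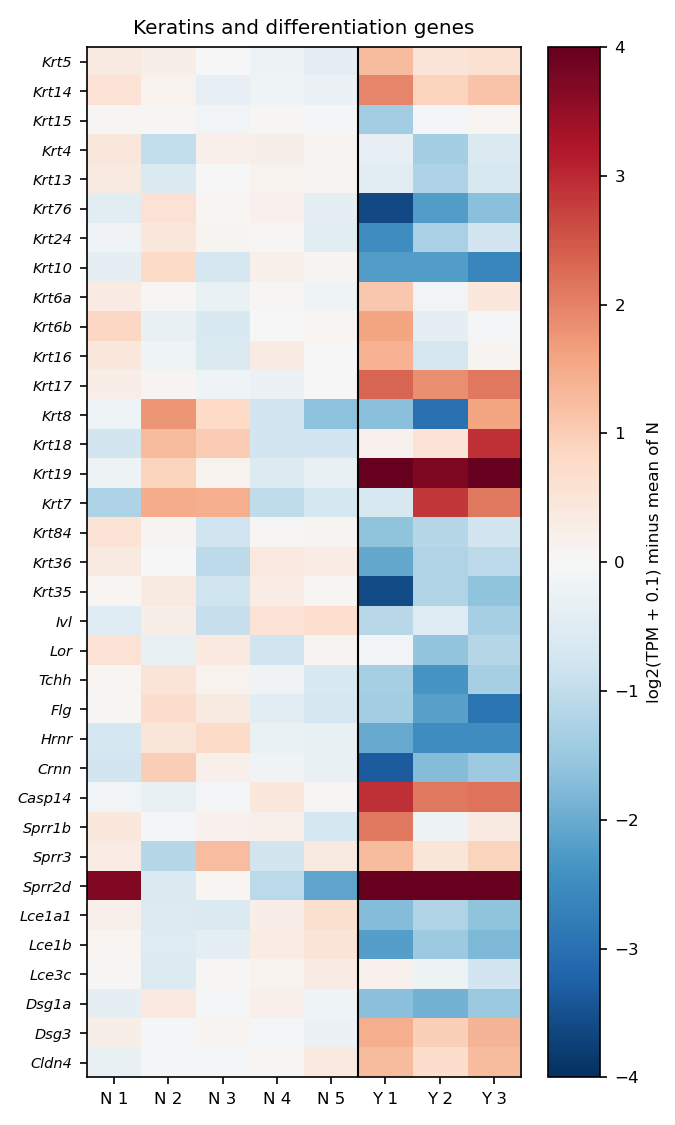
Log2(TPM + 0.1) of keratin and differentiation genes in N mice 1 to 5 and Y mice 1 to 3, with the mean of the N mice subtracted and colours running from -4 to 4. In the Y columns Krt19 and Sprr2d are above the N mean, and Lce1b lies lower on average.

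Ligand and signalling genes held DEGs in both directions. EGF family ligands gave 2 DEGs up, Hbegf and Epgn, and 1 down, Btc, of 9 tested, with Nrg3 not in the table and Nrg2 below the filter (0 without Y mouse 1, 2 or 3 and 1 without N mouse 1, 3, 4 or 5). Hbegf, heparin-binding EGF, was at 25.2, 16.6, 40.0, 41.3 and 59.4 TPM in the N mice and 109, 126.6 and 116 TPM in the Y mice (log2 fold change 1.81, standard error 0.39, adjusted p = 0.00380), and its groups did not overlap. Epgn, epigen, rose (log2 fold change 1.04, adjusted p = 0.00991). Btc, betacellulin, fell (log2 fold change -1.30, adjusted p = 0.00757). After each scaling only Btc passed, and the median of the ligands was 0.33 (0.14 and 0.17). Hbegf missed the threshold without Y mouse 1, 2 or 3 (adjusted p 0.0127 to 0.0189) and Epgn without Y mouse 1, 2 or 3 or N mouse 1, 3, 4 or 5 (adjusted p 0.0113 to 0.0515). Btc missed the threshold with any of the 8 mice left out (adjusted p 0.0101 to 0.0458). Of 15 ERBB receptors and MAPK feedback genes, with Erbb4 below the filter, Phlda1, an ERK-induced gene, rose (log2 fold change 1.48, adjusted p = 0.00134; 0 without Y mouse 1 and 2 without N mouse 5). Of 10 Notch pathway genes, with Hes5 not in the table, Heyl, a Notch target, fell (log2 fold change -2.58, adjusted p = 0.00335; 0 without Y mouse 1 or 2). Phlda1 missed the threshold without Y mouse 1 (adjusted p = 0.0112) and Heyl without Y mouse 1 or 2 (adjusted p 0.0120 to 0.0259). Fstl3, an activin inhibitor, rose among 11 TGF-beta family genes (log2 fold change 1.01, adjusted p = 0.00384), with Bmp6 below the filter. The count was 0 after both scalings, 0 without Y mouse 1, 2 or 3 or N mouse 4 or 5 and 2 without N mouse 1. Fstl3 missed the threshold without Y mouse 1, 2 or 3 or N mouse 4 or 5 (adjusted p 0.0105 to 0.0175). AP-1 factors gave 0 DEGs of 12 (limma, 2 at an unadjusted p under 0.05 and 0 by voom), with Batf below the filter, and 1 without N mouse 5. Medians were 0.11 (-0.09 and -0.16) for ERBB and MAPK feedback, 0.12 (-0.08 and 0.00) for AP-1, -0.21 (-0.40 and -0.42) for Notch and -0.12 (-0.26 and 0.02) for the TGF-beta family, and all but that of Notch changed sign with the scaling.

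Actin genes and the plasminogen system held DEGs up, and the list of epithelial-mesenchymal transition did not. Of 20 actin cytoskeleton genes 8 rose, 4 after each scaling and 4 without Y mouse 3 and 5 without Y mouse 1, and the median was 0.99 (0.79 and 0.72). Actn1, an actin crosslinker of adhesions, was at 2.15, 1.59, 1.10, 1.19 and 0.872 TPM in the N mice and 11.5, 5.93 and 8.49 TPM in the Y mice. Y mice were all above N mice (log2 fold change 2.58, standard error 0.32, adjusted p = 4.5e-05). The others included Tpm1 (1.22), Tpm4 (1.12), Myl12a (1.03), Tagln2 (1.30), Cnn3 (2.01) and Myh9 (1.00), which bind or stabilize filaments or make up myosin, with log2 fold changes in brackets. Tpm1 missed the threshold without Y mouse 1, 2 or 3 (adjusted p 0.0120 to 0.0189) and Myl12a without Y mouse 3 or N mouse 2 or 3 (log2 fold change 0.97 to 1.00). Tagln2 missed the threshold without Y mouse 1 or 3 (adjusted p 0.0121 to 0.0161) and Myh9 without Y mouse 1 or 3 or N mouse 3, 4 or 5 (adjusted p 0.0105 to 0.0445). Plat, the tissue plasminogen activator, was at 1.79, 0.397, 0.280, 0.274 and 0.464 TPM in the N mice and 10.3, 3.19 and 5.51 TPM in the Y mice (log2 fold change 3.28, standard error 0.59, adjusted p = 9.5e-04), without overlap. Plaur, the receptor of urokinase, rose as well (log2 fold change 2.52, adjusted p = 0.00213), as did Serpinb2, an inhibitor of activators (log2 fold change 1.74, adjusted p = 0.00195), which made 3 of 15 tested. These 15 are plasminogen system genes together with metalloproteinases and metalloproteinase inhibitors. The list had Mmp1b below the filter and a median of -0.27 (-0.47 and -0.51). Plaur missed the threshold without Y mouse 3 (adjusted p = 0.0179) and Serpinb2 without Y mouse 1 or 2 (adjusted p 0.0114 to 0.0139). The transition list gave 0 DEGs of 11 (limma, 3 at an unadjusted p under 0.05 and 0 by voom), or 1 without Y mouse 1. It had a median of -0.09 (-0.29 and -0.39), S100a4 not in the table and Cdh2 and Zeb1 below the filter.

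Among metabolic gene lists, those of glycolysis, cholesterol synthesis and amino acid transport held the most DEGs up. Of 18 glycolysis and lactate export genes 11 rose, 9 after median-of-ratios scaling and 10 after quantile normalization, and the median was 1.20 (1.00 and 1.02). Slc2a3, a high-affinity glucose transporter, was at 0.293, 0.0556, 0.0607, 0.00666 and 0.0300 TPM in the N mice and 2.05, 1.33 and 4.90 TPM in the Y mice. Slc16a3, a lactate exporter, was at 4.60, 2.27, 0.878, 0.635 and 0.672 TPM in the N mice and 14.9, 12.9 and 24.0 TPM in the Y mice. Neither overlapped between groups (log2 fold change 3.88, standard error 0.50, adjusted p = 6.4e-05 for the first and log2 fold change 3.54, standard error 0.52, adjusted p = 1.8e-04 for the second). Pgk1, a kinase of the pathway, was at 89.6, 77.7, 93.2, 72.5 and 94.2 TPM in the N mice and 251, 319.6 and 279.9 TPM in the Y mice (log2 fold change 1.73, standard error 0.13, adjusted p = 3.4e-07). The other DEGs were Pfkp (1.23), Pfkfb3 (1.75), Tpi1 (1.16), Gapdh (1.42), Pgam1 (1.04), Eno1 (1.32), Pkm (1.33) and Ldha (1.27), while Slc2a1, the main glucose transporter of keratinocytes, was not called (log2 fold change 1.04, adjusted p = 0.0372). Pfkfb3 missed the threshold without Y mouse 1 or 3 (adjusted p 0.0161 to 0.0163) and Pgam1 without Y mouse 1 or 3 or N mouse 4 (adjusted p 0.0102 to 0.0291). Against E, 8 of the 18 were higher in Y (median 0.91), and EY was higher than Y in 1, Slc2a3 (log2 fold change 2.66, adjusted p = 0.00272).

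Cholesterol synthesis gave 9 DEGs up of 21, 6 after median-of-ratios scaling and 6 after quantile normalization (median 0.92, scaled 0.72 and 0.64). Hmgcs1, which makes the precursor of mevalonate, was at 97.1, 122, 131, 113 and 106 TPM in the N mice and 219, 287 and 265 TPM in the Y mice (log2 fold change 1.17, standard error 0.15, adjusted p = 6.4e-05). Each Y mouse was above each N mouse in Hmgcs1. The rest included Mvd (1.31), Idi1 (1.65), Fdps (1.59), Sqle (1.35), Cyp51 (1.17) and Nsdhl (1.54), enzymes of the pathway. Y was higher than E in 13 of the 21 (median 1.05), and EY against Y gave 0 (limma, 6 at an unadjusted p under 0.05 and 0 by voom; median -0.13).

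Amino acid transport and serine synthesis gave 8 DEGs up of 20, 5 after each scaling (median 0.71, scaled 0.51 and 0.51). Slc1a1, a glutamate and cysteine carrier, was listed at 0 in all 5 N mice and at 0.896, 2.67 and 2.52 TPM in the Y mice (adjusted p = 2.2e-05). The others were Slc6a14 (2.06), Phgdh (1.10), Psat1 (1.49), Psph (1.04), Shmt2 (1.13), Mthfd1l (1.43) and Mthfd2 (1.59), carriers and enzymes from serine to folate-bound units. Slc6a14 missed the threshold without Y mouse 2 (adjusted p = 0.0101) and Psph without Y mouse 3 or N mouse 4 (log2 fold change 0.95 to 0.99). Shmt2 missed the threshold without N mouse 5 (log2 fold change 1.00) and Mthfd1l without Y mouse 1 or 3 (adjusted p 0.0125 to 0.0231). Of 20 Myc and ribosome biogenesis genes 2 rose, Npm1 and Nop16 (log2 fold changes 1.04 and 1.05), against 0 after both scalings, and 0 without Y mouse 3 and 1 without N mouse 4, with a median of 0.79 (0.59 and 0.53). Npm1 missed the threshold without Y mouse 2 or 3 or N mouse 4 (log2 fold change 0.93 to 0.98) and Nop16 without Y mouse 3 (log2 fold change 0.97). Respiratory chain subunits gave 3 DEGs up of 82, close to the 3.87% of all genes that rose, namely Atp5g3 (1.11), Ndufb6 (1.13) and Sdhd (1.03). The count was 0 after both scalings and 1 without N mouse 4, with Ndufa11b below the filter (median 0.45, scaled 0.25 and 0.19). Ndufb6 missed the threshold without N mouse 4 (log2 fold change 0.99) and Sdhd without Y mouse 2 or 3 or N mouse 1 or 4 (log2 fold change 0.91 to 0.99). In limma 0 of 84 ribosomal proteins passed (29 at an unadjusted p under 0.05 and 0 by voom; median 0.27, scaled 0.07 and 0.22). By the same measures it was 0 of 37 proteasome subunits (34 and 0; median 0.56, scaled 0.36 and 0.28), with Psma8 below the filter. It was 0 of 23 mitochondrially encoded genes (3 and 0; median -0.24, scaled -0.44 and -0.19).

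**Figure D3:**
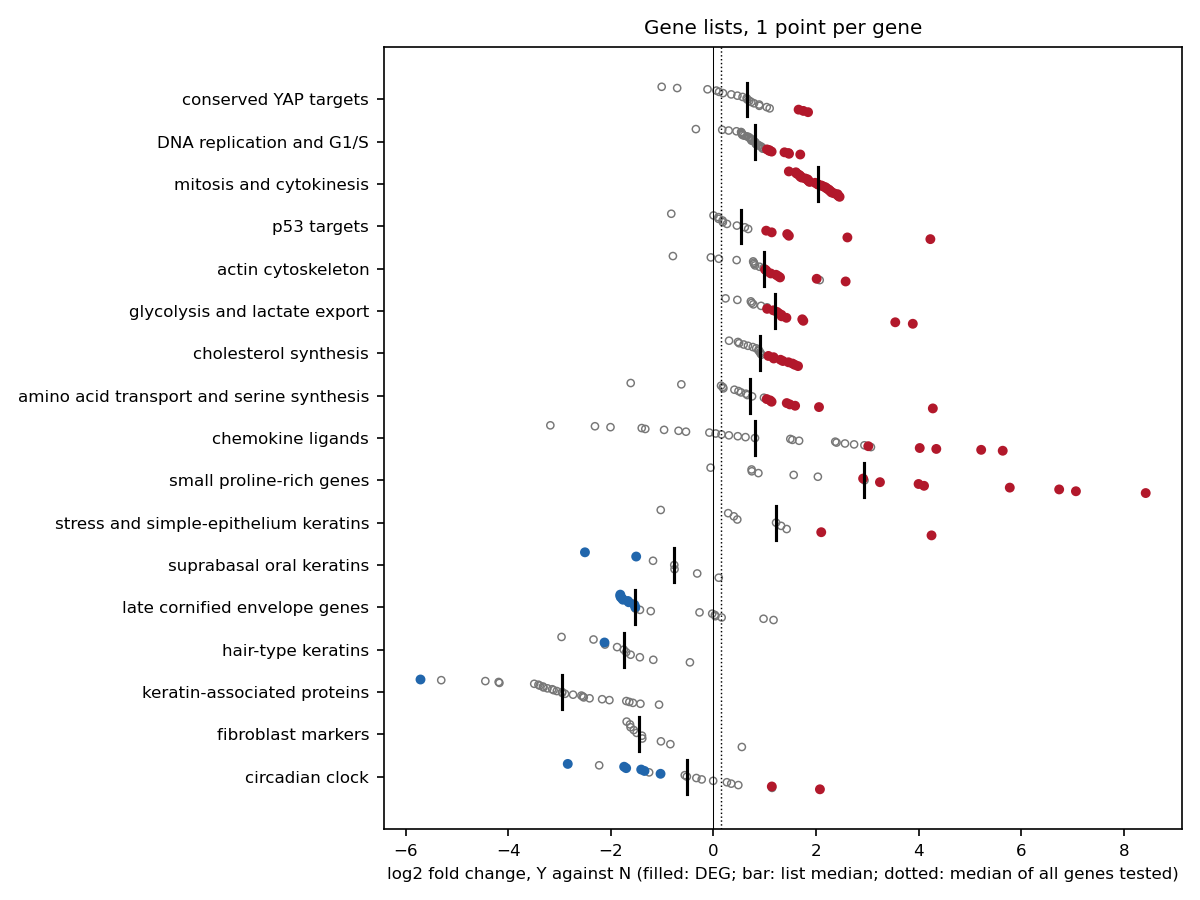
Log2 fold change of Y against N for the genes of 17 lists, 1 point per gene, filled where the gene is a DEG, with a bar at each list's median and a dotted line at the median of all genes, 0.15. Every mitosis gene is filled and to the right of 0, and the late cornified envelope genes lie mostly to the left.

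Some chemokines, cytokines and alarmins rose, most of them from low levels. Of 29 chemokine ligands 5 rose (2 without Y mouse 2 or 3), with a median of 0.81 (0.71 and 0.80) and Ccl1, Ccl12, Ccl19 and Cxcl17 below the filter. Ccl20, which draws cells with the receptor CCR6, was at 0.712, 1.71, 0, 0 and 0.231 TPM in the N mice and 12.01, 10.1 and 40.8 TPM in the Y mice (log2 fold change 5.64, standard error 0.77, adjusted p = 9.9e-05). Cxcl16, a membrane-bound chemokine, was at 24.4, 16.3, 10.7, 8.52 and 12.2 TPM in the N mice and 89.9, 117 and 125 TPM in the Y mice (log2 fold change 3.02, standard error 0.28, adjusted p = 3.0e-06), and the groups of both were apart. Ccl17 (5.22), Ccl2 (4.02) and Cxcl1 (4.34) were the other DEGs, with log2 fold changes in brackets. Ccl17 missed the threshold without Y mouse 2 or 3 (adjusted p 0.0190 to 0.0216) and Ccl2 without Y mouse 1, 2 or 3 or N mouse 2, 3, 4 or 5 (adjusted p 0.0127 to 0.0592). Cxcl1 missed the threshold without Y mouse 2 or 3 (adjusted p 0.0206 to 0.0207). The cytokine list around IL-24 and the colony-stimulating factors gave 4 DEGs up of 13, with Il20 below the filter (1 without Y mouse 2 or 3 and 2 without N mouse 1, 3, 4 or 5). The median was 1.66 (1.49 and 1.81), or 1.18 over the 11 with some mouse above 0 in both groups. Beside Il24 these included Csf3, the growth factor of granulocytes, listed at 0 in all 5 N mice and at 1.22, 1.34 and 3.04 TPM in the Y mice. Il19 rose (log2 fold change 3.41, adjusted p = 0.00864), as did Tslp, which acts on dendritic cells (log2 fold change 3.99, adjusted p = 0.00274). Il19 missed the threshold without Y mouse 2 or 3 or N mouse 1, 3, 4 or 5 (adjusted p 0.0144 to 0.0476) and Csf3 with any of the 8 mice left out (adjusted p 0.0108 to 0.0403). Tslp missed the threshold without Y mouse 2 or 3 (adjusted p 0.0193 to 0.0226).

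The IL-1 family gave 3 DEGs up and 1 down of 13 (1 up and 1 down after each scaling; 2 without Y mouse 1, 2 or 3 or N mouse 3, 4 or 5; median 0.19, scaled 0.08 and 0.01). Il33, an alarmin held in the nucleus, was at 14.6, 12.1, 19.7, 13.7 and 16.8 TPM in the N mice and 64.3, 32.2 and 40.8 TPM in the Y mice (log2 fold change 1.53, standard error 0.38, adjusted p = 0.00943). Il1r1 and Il1rn, the receptor and its antagonist, rose (log2 fold changes 1.65 and 1.18), while Il18 fell (log2 fold change -1.32, adjusted p = 0.00667). Il33 missed the threshold with any of the 8 mice left out (adjusted p 0.0109 to 0.0602) and Il18 without Y mouse 1, 2 or 3 or N mouse 3, 4 or 5 (adjusted p 0.0157 to 0.0275). Of 14 alarmins and antimicrobial peptides 3 rose, S100a8, S100a9 and Defb14, a beta-defensin (log2 fold change 2.27, adjusted p = 3.0e-04), and the median was -0.02 (-0.22 and -0.30). S100a8 was at 49.6, 11.1, 4.84, 8.84 and 6.82 TPM in the N mice and 471, 653 and 363 TPM in the Y mice. The lowest Y mouse was above N mouse 1, the highest control (log2 fold change 5.44, standard error 0.85, adjusted p = 3.1e-04). Lcn2, a siderophore-binding protein, was not called against N (log2 fold change 4.04, adjusted p = 0.0114) and was higher in Y than in E (log2 fold change 4.60, adjusted p = 0.00816). Interferon-stimulated genes gave 0 DEGs of 22 (limma, 3 at an unadjusted p under 0.05 and 0 by voom; median 1.06, scaled 0.87 and 0.88), and 0 for Y against E as well (limma, 2 and 1), where the median was -1.19.

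Markers of other cell types were read for cells that the epithelium might hold beside keratinocytes. The 10 neutrophil markers summed to 78.5, 33.4, 15.3, 11.5 and 12.1 TPM in the N mice and 771, 964 and 548 TPM in the Y mice, S100a8 being the most abundant, a gene that keratinocytes also express. Ly6g was at 0 in all 8 mice and, with Cd177, below the filter, Retnlg was at 10.8, 0 and 21.2 TPM in the Y mice, and of the 8 markers tested S100a8 and S100a9 were the DEGs (median 1.24, scaled 1.09 and 1.22). What part cells of that type have in the calls for S100a8 and S100a9 was not tested. Limma gave 0 DEGs in 9 macrophage markers, 11 T cell markers, 9 Langerhans and dendritic cell markers, 10 fibroblast markers, 4 endothelial markers, 12 skeletal muscle markers, 6 taste bud markers, 2 melanocyte markers and 3 salivary gland markers, where the counts at an unadjusted p under 0.05 were 0, 1, 1, 0, 1, 0, 3, 1 and 0 and those by voom 0, 0, 0, 0, 0, 0, 1, 0 and 0. Their medians on the TPM scale were -0.49, 0.31, -0.24, -1.45, -0.22, -0.81, -0.60, -0.37 and -1.04, in that order. With 1 mouse left out the T cell count was 1 without N mouse 1 and the taste bud count 1 without Y mouse 3, and after median-of-ratios scaling 2 taste bud markers were DEGs down.

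Filtered markers were Mertk for the macrophage list, Pecam1, Kdr, Tek and Emcn for the endothelial list, Myh2 for the skeletal muscle list, Gnat3 for the taste bud list, Tyrp1 and Mlana for the melanocyte list and Lpo, Amy1 and Dcpp1 for the salivary gland list. Of 5 Schwann cell markers 1 rose, Mal, a raft protein also made by epithelia. Mal was at 7.43, 6.59, 16.2, 3.52 and 6.81 TPM in the N mice and 125, 122 and 119 TPM in the Y mice (log2 fold change 4.07, standard error 0.42, adjusted p = 6.7e-06). The other 4 had log2 fold changes below 0, and the median was -1.32 (-1.40 and -1.32). Of 10 tongue epithelium markers Krt14 was called (0 calls after median-of-ratios scaling or without Y mouse 1 or 3 or N mouse 2, 3, 4 or 5), with a median of 0.52 (0.32 and 0.37). Xist, from the inactive X chromosome, was above Ddx3y, from the Y chromosome, in N mice 2 and 3 and in Y mice 1 and 3. By this measure 2 of 5 N and 2 of 3 Y mice were of that type, as were 0 of 5 E mice and 1 of 6 EY mice. The 5 sex-linked genes gave 0 DEGs (limma, 0 at an unadjusted p under 0.05 and 0 by voom; median -1.47, scaled -1.61 and -1.56). Mitochondrially encoded genes took 10.02, 14.1, 11.8, 12.9 and 10.1% of the TPM in the N mice and 8.17, 13.8 and 9.99% in the Y mice, which overlap.

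Further genes with large and steady changes, chosen after their values were seen, passed with any of the 8 mice left out and were also higher in Y than in E. Plet1, a surface protein of progenitor cells, was at 0.728, 1.44, 0.817, 0.988 and 0.962 TPM in the N mice and 47.2, 67.7 and 44.8 TPM in the Y mice (log2 fold change 5.62, standard error 0.40, adjusted p = 3.3e-07). Edn1, endothelin, was at 2.80, 2.34, 2.85, 2.57 and 3.49 TPM in the N mice and 70.4, 94.7 and 52.7 TPM in the Y mice (log2 fold change 4.61, standard error 0.34, adjusted p = 3.4e-07). Nppb, a natriuretic peptide, was at 3.62, 11.99, 5.87, 2.78 and 9.39 TPM in the N mice and 95.7, 203 and 256 TPM in the Y mice (log2 fold change 4.85, standard error 0.53, adjusted p = 1.3e-05). No mouse of either group overlapped the other in these genes. Against E, the log2 fold changes of Plet1, Edn1 and Nppb were 4.59, 4.57 and 2.66, and between EY and Y they were -0.24, -0.03 and 0.41, where none passed (adjusted p 0.677 to 0.967). The plot of 16 genes by mouse shows all 4 groups.

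**Figure D4:**
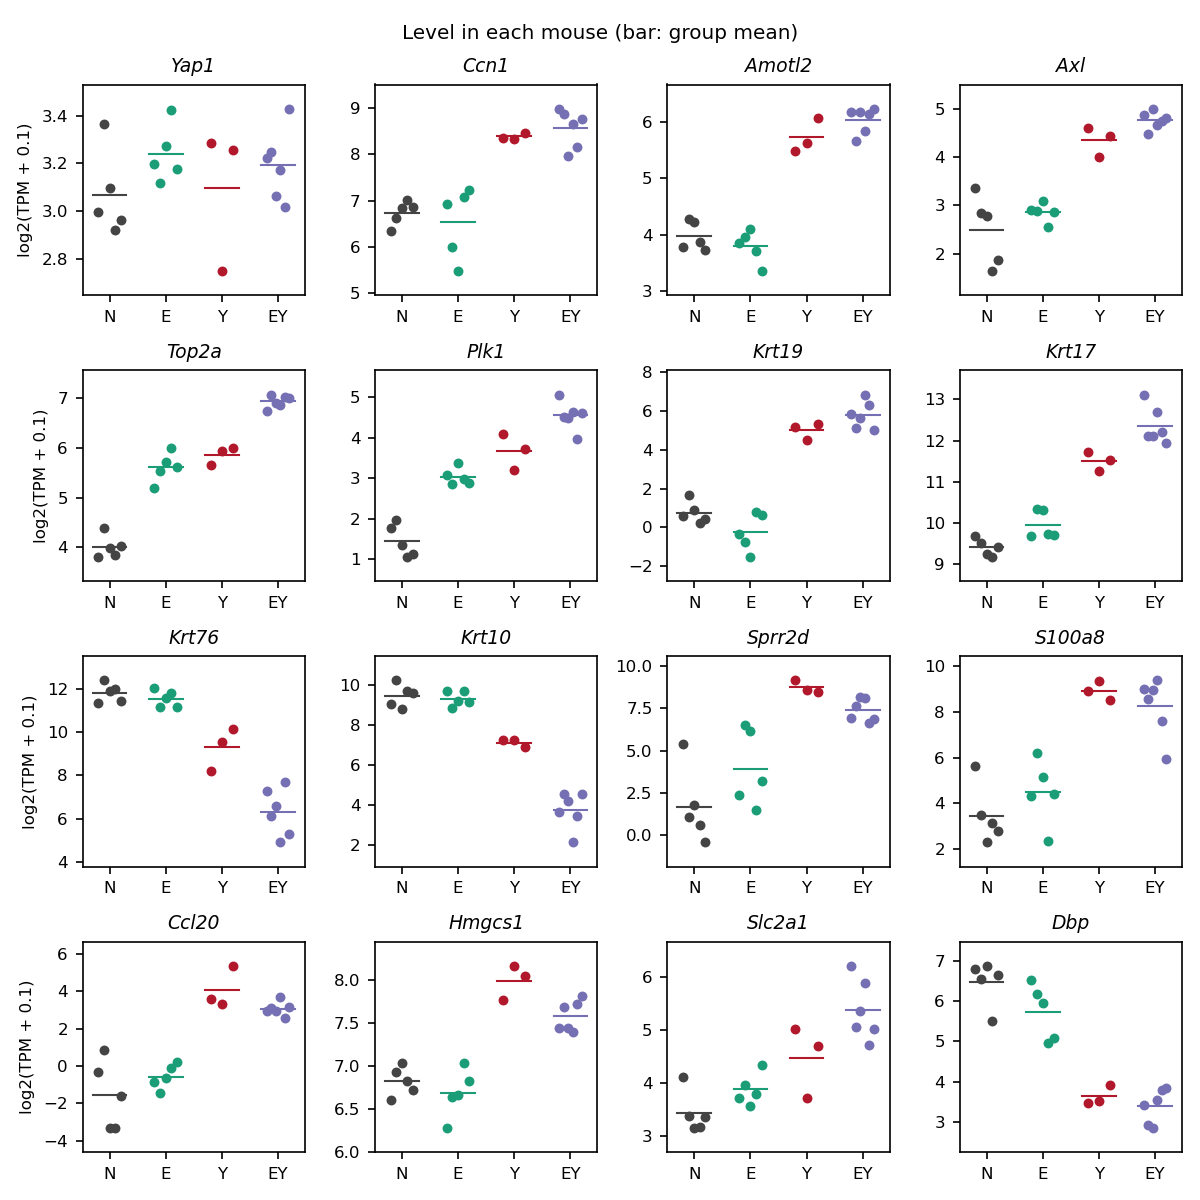
Log2(TPM + 0.1) of 16 genes in each mouse of the N, E, Y and EY groups, with a bar at the group mean. Ccn1, Amotl2, Krt19, Krt17 and Sprr2d are higher in every Y mouse than in any N mouse, and Yap1 is not.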

How the data were processed

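RNA-seq of tongue epithelium, 1 library per mouse, was used for all 19 mice. The authors deposited a table of TPM values, and the submitters' processing notes name STAR 2.7.9, SAMtools 1.7, HTSeq 0.13.5 and DESeq2 1.34.0 with build GRCm39, while the step from counts to TPM is not given in the sources used here. Whole reads per gene were recovered from the TPM values and gave the depths, 8269674 to 10654405 reads in the 8 mice. Genes with at least 0.1 TPM in 3 or more of the 8 mice were kept, and log2(TPM + 0.1) was fitted in limma 3.58.1 (R 4.3.3; lmFit, eBayes with trend) with 1 mean for each of the 4 groups. The tests were two-sided, and p was adjusted by Benjamini-Hochberg over all 20776 genes tested in each comparison. The 30 named genes are DEGs whose mice do not overlap and whose mean is at least 1 TPM in the higher group, taking 15 per direction by log2 fold change. Members and gene lists were chosen with earlier results of these data known, and 6 of the 59 lists after the values were seen here. Some list members are counted and not reported here by name. Alternatives were other pseudocounts (0.01 and 1 TPM), filters (above 0 and 1 TPM), median-of-ratios scaling, quantile normalization and voom on the recovered reads. Further alternatives were covariates for Xist and for muscle markers, a replicate block, fewer mice, and each of the 8 Y and N mice left out. E and EY mice were not left out singly. Tables and plots were made in Python 3.11.15 with numpy 2.4.6, pandas 2.3.3 and matplotlib 3.10.9.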

Additional observations from a re-analysis of the deposited data

Results flagged for a closer look

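Among 14 summed marker levels and library measures of the 5 N mice, 4 had a mouse far from the others. Its gap to its neighbour was above 0.71 of the range. For normally distributed values chance marks about 1 in 20 groups, and these measures need not be normal or independent. N mouse 1 was the highest for macrophage markers, at 393.842 TPM against 121.075 in the next N mouse. It was also the highest for endothelial markers, at 9.57314 TPM against 3.16264 in the next. N mouse 2 stood out for skeletal muscle markers, at 333.522 TPM against 87.9397 in the next. For taste bud markers N mouse 2 had 23.8436 TPM against 12.5233 in the next. Y against N gave 1050 DEGs without N mouse 1 and 1047 without N mouse 2, against 1069 with all mice.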

How the results depend on the processing

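Of 20 alternatives for Y against N, none changed the sign of a DEG of the 1069. The count of DEGs was 615 with Y and N mice only, 679 with N mice 1 to 3 only and 674 to 1050 with a mouse left out, where it was 674 without Y mouse 3. Y against E gave 334 with Xist as a covariate and 270 to 560 with a Y or N mouse left out. EY against Y gave 194 to 433 with a Y or N mouse left out, and E and EY mice were not left out singly. The cause was not tested, except that the first 3 use fewer mice. The replicate block, a fit with mice paired by their number, gave 918, 426 and 321 for the 3 comparisons. Across genes, Y and N mice of the same number correlated at 0.00202 to 0.0535 and others at -0.0441 to 0.0443. Of the 3 Y mice, 2 correlated best with the N mouse of their number. With 3 such pairs and values this low, it cannot be told whether the numbers pair the mice. The other counts of all genes stayed within 1.5 times. Of 600 values of named genes 461 stayed past the threshold and 139 fell short, and of 1180 counts of lists 955 stayed within 1.5 times and 225 did not. Among the 59 lists, 27 counts moved with N mice 1 to 3 only and 22 with Y and N mice only. In every alternative 315 of the 1069 calls passed, 276 up and 39 down. Limits are the 3 Y mice, controls of 3 genotypes, sexes that differ in share between the groups, and TPM, which sums to the same total in every mouse, so that a rise in abundant genes lowers the rest. Low reads limit genes such as Gm49733, with 2 to 4 reads in a Y mouse. RNA of a mix of layers cannot show which layer changed.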

Other observations

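The gene groups that follow were chosen after their values were seen, so their counts describe and do not test. Clock genes gave 2 DEGs up and 6 down of 19 (0 up and 7 down after median-of-ratios scaling and 1 up and 8 down after quantile normalization; median -0.52, scaled -0.72 and -0.69; 4 without Y mouse 1 or 2 or N mouse 2 and 5 without N mouse 3). Dbp, a PAR bZIP factor at the output of the clock, was at 112, 94.0, 117, 45.5 and 101 TPM in the N mice and 10.996, 11.4 and 15.1 TPM in the Y mice. All Y mice were below all N mice (log2 fold change -2.84, standard error 0.36, adjusted p = 5.9e-05). Nfil3, which competes with Dbp for its sites, was at 1.36, 0.423, 0.877, 0.284 and 1.16 TPM in the N mice and 4.11, 2.38 and 3.77 TPM in the Y mice and rose (log2 fold change 2.07, standard error 0.48, adjusted p = 0.00573). Arntl, the core activator BMAL1, rose (log2 fold change 1.14, adjusted p = 0.00745), and Nr1d1, a repressor of Arntl, fell (log2 fold change -1.70, adjusted p = 0.00432), as did Tef, Per3, Nr1d2 and Ciart (log2 fold changes -1.03, -1.41, -1.34 and -1.74). Nfil3 missed the threshold without Y mouse 1, 2 or 3 or N mouse 2 or 4 (adjusted p 0.0107 to 0.0319) and Arntl with any of the 8 mice left out (adjusted p 0.0120 to 0.0403). Nr1d1 missed the threshold without Y mouse 1 or 2 or N mouse 1, 2 or 3 (adjusted p 0.0102 to 0.0341) and Tef without Y mouse 1 (adjusted p = 0.0154) or without N mouse 2 or 3 (log2 fold change -0.99 to -0.97). Ciart missed the threshold without Y mouse 2 (adjusted p = 0.0104). Y was below E in 3 of these genes. The hour at which each mouse was taken is not stated, so hour and genotype cannot be told apart.

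Annexins and S100 proteins, which bind calcium, gave 8 DEGs up of 26 genes with such symbols, Anxa11os and S100pbp included (median 0.52, scaled 0.33 and 0.48). Anxa3 was at 1.47, 0.991, 1.07, 0.336 and 0.696 TPM in the N mice and 12.003, 18.7 and 16.4 TPM in the Y mice, without overlap (log2 fold change 4.06, standard error 0.44, adjusted p = 1.0e-05). Beside S100a8 and S100a9 the rest were Anxa1 (2.49), Anxa2 (1.87), S100a6 (2.56), S100a10 (2.28) and S100a11 (1.67), with log2 fold changes in brackets, and 8 members were higher in Y than in E. TNF receptors gave 5 DEGs up of 18, with Tnfrsf8 below the filter (4 up and 0 down after median-of-ratios scaling and 4 up and 1 down after quantile normalization; 3 without Y mouse 1 or 3; median 0.32, scaled 0.20 and 0.21), of which Tnfrsf12a, the receptor of TWEAK, was at 45.9, 50.7, 45.2, 34.8 and 57.6 TPM in the N mice and 196, 271 and 229.8 TPM in the Y mice (log2 fold change 2.32, standard error 0.18, adjusted p = 7.8e-07). Kallikreins gave 3 up of 16 tested of 20, Klk6, Klk10 (1.52) and Klk12 (1.22), and the membrane proteases of the TMPRSS11 group 3 of 6 tested of 7, Tmprss11b (2.01), Tmprss11e (1.71) and Tmprss11g (2.77), with medians of 0.38 (0.18 and 0.13) and 1.02 (0.83 and 0.92). Kallikreins up were 2 after median-of-ratios scaling and 1 after quantile normalization, where 1 TMPRSS11 gene was down. Klk10 missed the threshold without Y mouse 1 or 3 or N mouse 2, 3, 4 or 5 (adjusted p 0.0122 to 0.0445) and Tmprss11e without Y mouse 1 (adjusted p = 0.0141).

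Drug and aldehyde enzymes gave 3 DEGs up and 11 down of 98 tested of 117 (2 up and 16 down after median-of-ratios scaling and 3 up and 13 down after quantile normalization; median -0.44, scaled -0.61 and -0.53; 7 without Y mouse 1 or 2 and 9 without Y mouse 3 or N mouse 4), with the other 19 below the filter. Over all genes tested 3.87% rose and 1.27% fell. Ces1d, a carboxylesterase, was at 3.10, 8.43, 22.0, 12.5 and 9.22 TPM in the N mice and 0.295, 1.60 and 1.42 TPM in the Y mice (log2 fold change -3.21, standard error 0.65, adjusted p = 0.00246). Fmo2, a flavin monooxygenase, was at 126.98, 195, 215, 185 and 199.8 TPM in the N mice and 10.5, 52.9 and 60.5 TPM in the Y mice (log2 fold change -2.48, standard error 0.61, adjusted p = 0.00873). Each was lower in every Y mouse. Gsta3, a glutathione transferase, rose (log2 fold change 3.35, adjusted p = 7.6e-06). Ces1d missed the threshold without Y mouse 1 (adjusted p = 0.0203) and Fmo2 with any of the 8 mice left out (adjusted p 0.0109 to 0.0688).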
